A study of Mus musculus with 6 samples.

Results

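Interferon-stimulated genes were examined in bone marrow cells of hindlimb-unloaded mice. The set held 38 genes, taken by gene name from a count table of 54532 genes, and all 38 were found there. All 38 also passed the filter on low counts, among 15015 genes tested. Single libraries held from 11 to 4243 counts for a member.

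The study profiled total RNA from fresh femoral marrow cells of mice whose genotype is given as WT. Control mice (3 libraries) had no treatment, and unloaded mice (3 libraries) underwent hindlimb unloading for 4 weeks, a model of disuse osteoporosis in which the hind limbs bear no weight. The labels give no strain, age or sex, and they do not say whether each library came from a separate animal, so p-values measure only the spread between these samples. Total counts ran from 15850986 to 17775506 per library, and neutrophil granule genes such as Ngp and Ltf, typical of whole marrow, were abundant in every library. The unloaded 1 library stood apart. Its score on the first principal component was 51.3, against -13.7 to -7.37 for the rest, and mitochondrially encoded genes took 0.439% of its counts, against 1.05% to 1.27%.

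Type I interferons bind the receptor made of IFNAR1 and IFNAR2, whose kinases JAK1 and TYK2 activate the transcription factor complex ISGF3. The complex binds the interferon-stimulated response element (ISRE) in the promoters of its target genes. Interferon gamma acts through a receptor of its own and the GAS element, and drives in particular the GTPases of the GBP and IRG families. In uninfected marrow these genes have a basal level, and strong interferon signals push hematopoietic stem cells out of dormancy.

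The ISRE is printed here because it is the element through which most of these genes answer interferon. RefSeq promoters (GRCm38.p6) were at hand for 28 of the 38 genes. The 10 without an entry were Dhx58, Zbp1, Oas2, Mx1, Mx2, Usp18, Parp9, Parp14, Ifi27l2a and Rtp4. The 250 bases before each start were searched on both strands for GAAA followed, after any 2 bases, by GAAA again (TTTC, 2 bases and TTTC on the other strand). A match was found in 13 of the 28 genes (46.4%). The share was 3.48% of the genes tested that had an entry, and 3.46% of all genes with an entry. Windows around the matches follow for 6 genes, 5′ to 3′ on the strand of the gene, with matching bases in capitals. The first 5 have the smallest p in the comparison below among genes with a match. Isg15 was added after its values were seen, as a gene with 3 overlapping matches and little difference between the groups.
Ifit3, chr19:34583343-34583446, plus strand: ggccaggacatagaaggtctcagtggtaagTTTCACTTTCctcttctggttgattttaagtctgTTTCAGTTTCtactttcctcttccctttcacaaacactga
Gbp3, chr3:142559969-142560043, plus strand: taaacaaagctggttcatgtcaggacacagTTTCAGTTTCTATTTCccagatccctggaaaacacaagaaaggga
Oas1a, chr5:120907526-120907575, minus strand: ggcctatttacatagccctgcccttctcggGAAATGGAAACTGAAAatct
Irgm1, chr11:48871421-48871480, minus strand: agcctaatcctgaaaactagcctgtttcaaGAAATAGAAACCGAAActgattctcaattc
Ifit3b, chr19:34607739-34607842, plus strand: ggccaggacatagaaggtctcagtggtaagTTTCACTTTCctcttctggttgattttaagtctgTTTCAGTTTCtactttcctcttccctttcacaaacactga
Isg15, chr4:156200845-156200926, minus strand: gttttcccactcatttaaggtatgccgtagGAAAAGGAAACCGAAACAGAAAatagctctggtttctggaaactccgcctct

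The windows of Ifit3 and Ifit3b were identical over all 104 bases, at different distances from the start. The matches began 156 and 122 bases before the start of Ifit3, and 188 and 154 bases before that of Ifit3b. In Gbp3, Oas1a and Irgm1 paired matches overlapped within 45 bases of the start. The GAS letters TTCNNNGAA read the same on both strands. They were found for 6 of the 28 genes (21.4%) and for 7.3% of the genes tested that had a promoter entry. A match of letters is a description and not evidence of binding.

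Setting unloaded beside control marrow shows whether basal expression of these genes differs after 4 weeks without weight bearing. Most members had a slightly lower mean level in unloaded marrow. Of the 38, 32 had a negative log2 fold change, where 48.8% of all genes tested did, and the median was -0.18 against 0.01 over all genes tested. The largest differences were in Ifit3 at -0.88 and Ifi27l2a at -0.86, and only Rtp4 and Ifit3b were also below -0.5. The 6 members with a positive value, Zbp1, Gbp2, Ifi35, Isg20, Mx2 and Gbp7, stayed at or under 0.24. Ddx58, Usp18 and Isg15, widely used reporters of interferon signaling, were among 14 members whose fold change was smaller than its standard error.

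No member passed edgeR's quasi-likelihood test after adjustment over all genes tested, nor did any other gene (0% called in each direction), and the smallest adjusted p among members was 0.288, for Ifi27l2a. At an unadjusted p under 0.05 there were 6 members, all lower (15.8%), against 3.18% of all genes tested lower and 2.67% higher at that threshold. They were Ifi27l2a, Ifit3, Cmpk2, Rtp4, Oasl2 and Dtx3l. In 6 members every unloaded library lay below every control (15.8%), against 6.41% of all genes tested, and in none did every unloaded library lie above, against 5.45% of all genes tested. DESeq2 called 1 member, Ifi27l2a, where it called 0.173% of genes as lower and 0.0794% as higher. Limma-voom called 0 members, with 5 lower at an unadjusted p under 0.05, where 3.32% of all genes tested were lower. Without control 3 the members' median was -0.12 and 3 were lower at an unadjusted p under 0.05, against 2.41% of all genes tested. Without unloaded 2 that count was also 3, against 3.88% of all genes, and without unloaded 1 it was 9, against 5.18%. In each of the fits without unloaded 1 and without unloaded 2, 1 member was higher at that threshold. Members share cells and regulators, so they are not independent observations. They were also chosen with earlier results of these data known, so these shares are no independent test of the set.

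**Figure D1:**
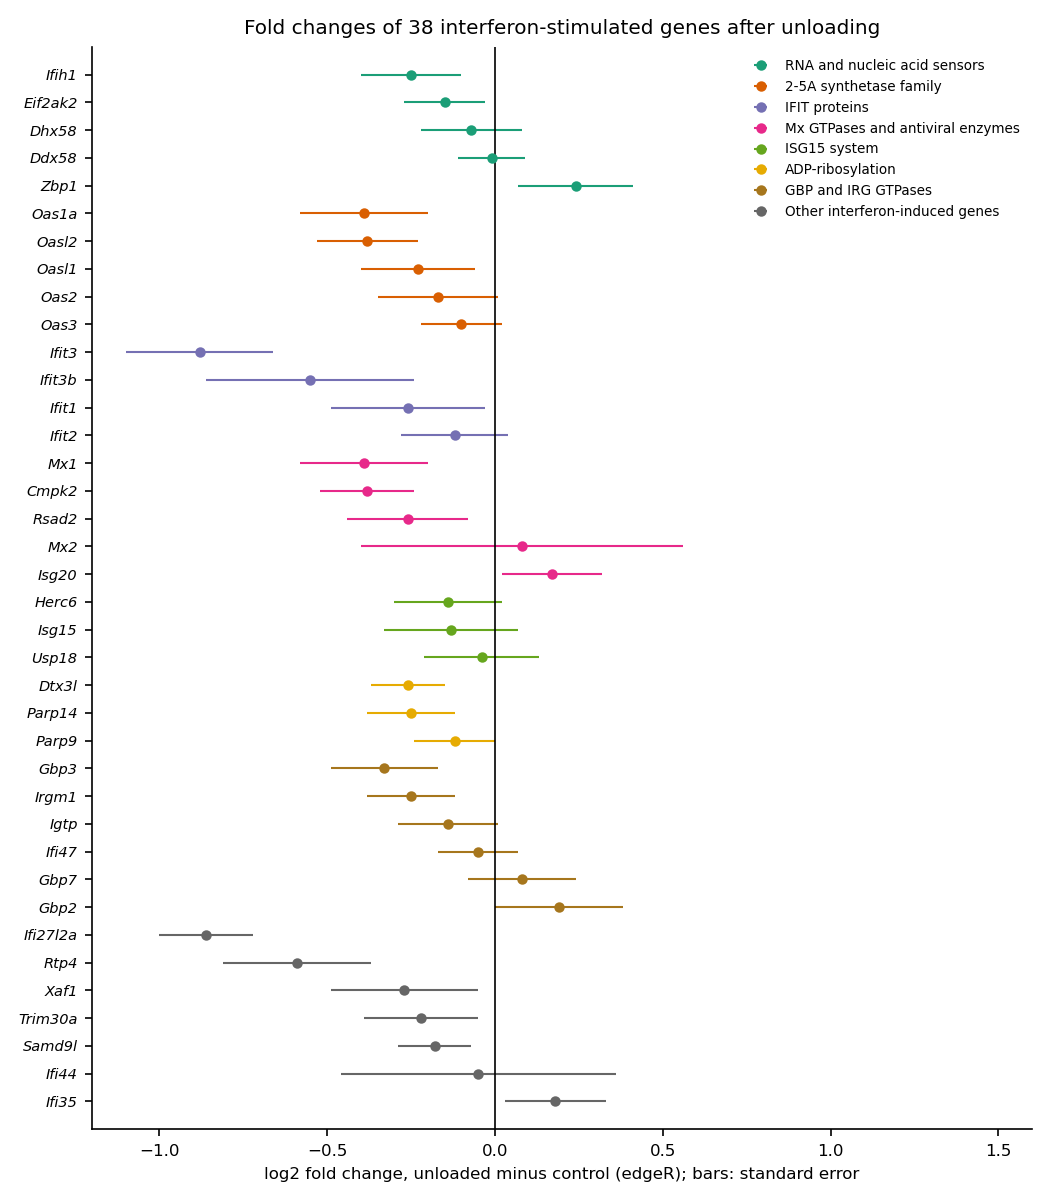
Log2 fold change (unloaded minus control, edgeR) of each of the 38 genes on the x axis, with its standard error as a bar, grouped by role in color. The points of 32 genes lie left of 0, and Ifit3 and Ifi27l2a lie farthest left.

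Ifi27l2a (ENSMUSG00000079017, mm10 chromosome 12, 103442167 to 103443680, minus strand) encodes a small interferon-induced membrane protein. It was at 29.7, 32.2 and 26.9 CPM in controls 1 to 3, and at 17.6, 13.9 and 17.5 CPM in unloaded 1 to 3. The groups did not overlap, and the control library with the least still exceeded the unloaded library with the most. The level was 44.8% lower after unloading (log2 fold change -0.86 ± 0.14, SE), at an adjusted p of 0.288 in edgeR and 0.000899 in DESeq2. Leaving out single libraries kept the log2 fold change between -0.92 and -0.76. The edgeR adjusted p was 0.0601 without unloaded 1, but 0.999 without control 1, where 0.999 was also the smallest over all genes tested. Among all genes tested its p ranked 5. Scaled to gene length it had the highest mean level of the set, at 63.9 CPM per kb in controls and 35.3 CPM per kb after unloading. Only 0.483% of the 50-base windows of its transcript occurred in a transcript of another gene, its neighbor Ifi27l2b. Ifi27, another gene of the family close by on chromosome 12, averaged 41.4 ± 1.64 CPM in controls against 33.7 ± 2.12 CPM in unloaded libraries (SD, n = 3), also without overlap.

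The IFIT genes encode tetratricopeptide-repeat proteins that bind foreign RNA, and lie together on mm10 chromosome 19. All 4 had values below 0 and a median of -0.41, which was -0.21 without control 3. Ifit3 (34583531 to 34588731) was at 7.02, 8.13 and 9.56 CPM in controls and at 3.56, 5 and 4.81 CPM in unloaded libraries. Every unloaded value was below every control value, at a log2 fold change of -0.88 ± 0.22 (SE; edgeR adjusted p = 0.60). Ifit3b (34607970 to 34613401), its close copy, was at 2.28, 2.47 and 3.87 CPM in controls and at 1.91, 2.23 and 1.73 CPM after unloading. Its groups were separate by a narrow margin, with control 3 well above the others (log2 fold change -0.55 ± 0.31, or -0.28 without control 3). These genes share sequence: 51.2% of the 50-base windows of the Ifit3 transcript also occurred in Ifit3b, so the division of reads between them is uncertain.

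Ifit1 was at 7.2, 5.66 and 8.09 CPM in controls and at 5.02, 5.41 and 7.03 CPM after unloading. Ifit2, whose protein can promote apoptosis, was at 23.4, 18.9 and 21.8 CPM in controls and at 16, 19.6 and 23.2 CPM in unloaded libraries. For both genes the groups overlapped, with log2 fold changes of -0.26 ± 0.23 and -0.12 ± 0.16. Without unloaded 1, the lowest library for both, the value for Ifit2 was 0.01.

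**Figure D2:**
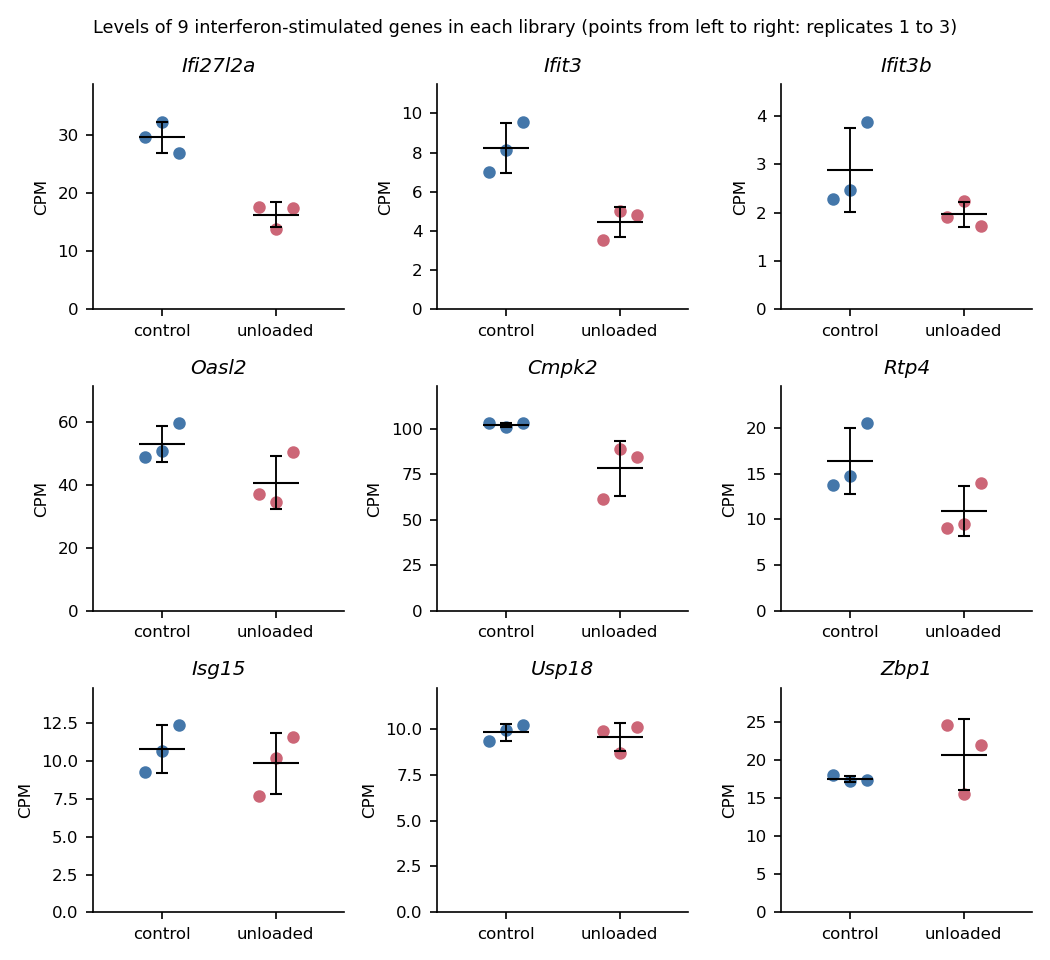
TMM-normalized CPM of 9 genes in each library, with points for replicates 1 to 3 from left to right and the mean and SD of each group in black. Ifi27l2a, Ifit3, Ifit3b and Cmpk2 show no overlap between the groups, whereas Isg15, Usp18 and Zbp1 do.

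The 2-5A synthetases make the oligoadenylate that activates RNase L, and the OAS-like proteins are their relatives. All 5 members were below 0, at a median of -0.23, although 1 was not when unloaded 2 was left out. Oasl2 was at 49.1, 50.7 and 59.6 CPM in controls and at 37.3, 34.6 and 50.5 CPM after unloading. Unloaded 3 reached the level of the lower controls, and the log2 fold change was -0.38 ± 0.15 (edgeR unadjusted p = 0.0305, adjusted p = 0.804). Oas1a was at 22.3, 17.3 and 18.4 CPM in controls and at 17.6, 10.9 and 15.8 CPM in unloaded libraries. The difference of -0.39 ± 0.19 was -0.22 without unloaded 2.

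Oasl1, which restrains translation of the Irf7 transcript, was at 13.2, 10.8 and 13.8 CPM in controls and at 11.8, 9.88 and 10.6 CPM after unloading. Oas3, the most abundant of the family, was at 118, 103 and 121 CPM in controls and at 119, 92 and 108 CPM in unloaded libraries. Both overlapped between the groups. Oas2 had a log2 fold change of -0.17 ± 0.18. Unloaded 2 was the lowest of the 6 libraries for all 5 genes. Oas1g, a paralog beside Oas1a on chromosome 5, was at 4.23, 1.99 and 1.58 CPM in controls and at 0.70, 0.764 and 0.555 CPM after unloading, a log2 fold change of -1.94 ± 0.45 (edgeR adjusted p = 0.524). Of the 50-base windows of the Oas1a transcript, 57.6% also occurred in Oas1g, so the separate values of these copies are uncertain.

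Mx proteins are dynamin-like GTPases that block viral ribonucleoproteins, Rsad2 encodes viperin, which makes a chain-terminating nucleotide, and Cmpk2 encodes a mitochondrial nucleotide kinase next to it on chromosome 12. Cmpk2 was at 103, 101 and 103 CPM in controls and at 61.3, 89 and 84.6 CPM after unloading. The controls agreed closely and all unloaded libraries were lower, unloaded 1 most of all. Its log2 fold change was -0.38 ± 0.14 (edgeR unadjusted p = 0.0171, adjusted p = 0.801), or -0.24 without unloaded 1. Rsad2 was at 51.6, 45.1 and 66.7 CPM in controls and at 34.5, 52.8 and 49 CPM in unloaded libraries. Apart from unloaded 1 the groups covered similar levels, and the log2 fold change of -0.26 ± 0.18 was -0.10 without that library.

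Mx1 was at 16.4, 20.1 and 22.9 CPM in controls and at 17, 11.5 and 16.9 CPM after unloading, a log2 fold change of -0.39 ± 0.19 with slight overlap. Mx2, listed as a polymorphic pseudogene, ranged from 1.23 CPM in unloaded 2 to 5.85 CPM in unloaded 1, with all controls between. Its log2 fold change was 0.08 ± 0.48, or -0.85 without unloaded 1. Isg20, an RNA exonuclease gene, had 0.17 ± 0.15, or 0.31 without unloaded 1, at an unadjusted edgeR p of 0.0151 in that fit.

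The ISG15 system attaches a ubiquitin-like protein to targets: Isg15 is the modifier, Herc6 the ligase in mice and Usp18 the protease that removes it and also damps the receptor. Isg15 was at 9.31, 10.7 and 12.4 CPM in controls and at 7.70, 10.2 and 11.6 CPM after unloading. Usp18 was at 9.31, 9.93 and 10.2 CPM in controls and at 9.86, 8.70 and 10.1 CPM in unloaded libraries. Herc6 was at 11.2, 11.2 and 12.7 CPM in controls and at 9.79, 11.5 and 10.6 CPM after unloading. All 3 genes overlapped between the groups, with log2 fold changes of -0.13 ± 0.20, -0.04 ± 0.17 and -0.14 ± 0.16. Leaving out single libraries moved Isg15 between -0.27 and 0.02, and Herc6 was at -0.08 without unloaded 1. Herc6 shares 23.8% of its 50-base windows with the overlapping gene model Gm45193, so its count is uncertain.

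Parp9 and Dtx3l form a complex that ADP-ribosylates ubiquitin, and Parp14 is a mono-ADP-ribosyltransferase. The 3 genes are neighbors on chromosome 16. Dtx3l was at 66.7, 53 and 58.7 CPM in controls and at 50, 48.3 and 50.8 CPM after unloading. Its groups were separate, at a log2 fold change of -0.26 ± 0.11 (edgeR unadjusted p = 0.0442, adjusted p = 0.833). Parp14 was at 86.6, 69.9 and 82.1 CPM in controls and at 77, 60.9 and 62.1 CPM in unloaded libraries, or -0.25 ± 0.13. Parp9 was at 34.9, 31.8 and 39.5 CPM in controls and at 33.2, 29.8 and 34.6 CPM after unloading, or -0.12 ± 0.12. Both overlapped between the groups. Parp9 and Dtx3l lie on opposite strands and overlap by 682 bases, and reads from that stretch cannot be told apart without strand.

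Among the nucleic acid sensors, Ddx58 (RIG-I), Ifih1 (MDA5) and Dhx58 (LGP2) detect viral RNA, Zbp1 binds Z-form nucleic acid and Eif2ak2 encodes the kinase PKR. Ddx58 was at 63.7, 69.2 and 68.5 CPM in controls and at 63.6, 65.2 and 70.5 CPM after unloading. Its log2 fold change of -0.01 ± 0.10 was 0.00 with upper-quartile scaling, so it has no direction here. Ifih1 was at 27.4, 29.2 and 32.7 CPM in controls and at 20.5, 27 and 27.8 CPM in unloaded libraries, or -0.25 ± 0.15, and -0.12 without unloaded 1. Eif2ak2 was at 41, 42.2 and 47.5 CPM in controls and at 35.5, 41 and 41.5 CPM after unloading, or -0.15 ± 0.12, and -0.08 without unloaded 1.

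Zbp1 had the highest fold change of the 38 genes. It was at 18, 17.2 and 17.4 CPM in controls and at 24.6, 15.5 and 22 CPM after unloading, with unloaded 2 below all controls. The log2 fold change of 0.24 ± 0.17 was 0.10 without unloaded 1. Dhx58 had -0.07 ± 0.15.

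The GBP and IRG families are interferon gamma-responsive GTPases that attack the vacuoles of intracellular pathogens. Of 6 members, 4 were below 0, and their median was -0.09, or -0.20 without control 1 and -0.04 without control 2 or control 3. Irgm1 was at 30, 29.2 and 36.5 CPM in controls and at 27.1, 28.5 and 24.9 CPM after unloading. Its groups were separate by a small gap, at -0.25 ± 0.13 (edgeR unadjusted p = 0.0831). Gbp3 was at 19.2, 20.8 and 17.5 CPM in controls and at 13.4, 14.3 and 18 CPM in unloaded libraries, or -0.33 ± 0.16.

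Gbp2 was at 14.8, 13.2 and 11.1 CPM in controls and at 18.5, 13.1 and 13.2 CPM after unloading. Its positive value of 0.19 ± 0.19 was 0.01 without unloaded 1. Ifi47, the most abundant of these genes, was at 36.1, 45 and 45.3 CPM in controls and at 38, 43.2 and 40.9 CPM in unloaded libraries. Both overlapped between the groups. Gbp7 had 0.08 ± 0.16 and Igtp -0.14 ± 0.15. Igtp overlaps Irgm2 on the same strand by 7974 bases, so the counts of both are uncertain. Irgm2, another IRG gene, averaged 24.8 ± 2.08 CPM in controls against 18.5 ± 1.18 CPM in unloaded libraries (SD, n = 3). Its groups were separate, as for 6.41% of all genes tested. Related GTPase genes outside the 38 went both ways without unloaded 1. Tgtp1, Gbp4, Tgtp2 and Gbp8 were at 0.89, 0.25, 0.22 and 0.19, and Irgm2, Gbp5, Gbp6 and Gbp9 at -0.37, -0.05, -0.36 and -0.08.

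The remaining members are interferon-induced genes of other kinds. Rtp4, which encodes a receptor transporter protein that also inhibits viral replication, was at 13.8, 14.8 and 20.5 CPM in controls and at 9.09, 9.53 and 14 CPM after unloading. Unloaded 3 was just above control 1, and the log2 fold change was -0.59 ± 0.22 (edgeR unadjusted p = 0.0197, adjusted p = 0.802). Samd9l, a growth-restraining gene of myeloid cells and the member with the highest CPM, was at 242, 200 and 200 CPM in controls and at 181, 181 and 205 CPM in unloaded libraries, or -0.18 ± 0.11. Xaf1 and Trim30a had -0.27 ± 0.22 and -0.22 ± 0.17. For Trim30a the value was -0.07 without unloaded 1, and unloaded 3, at 110 CPM, was the highest library. Ifi35 had 0.18 ± 0.15, or 0.07 without unloaded 1, and Ifi44, at about 1 CPM, had -0.05 ± 0.41.

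**Figure D3:**
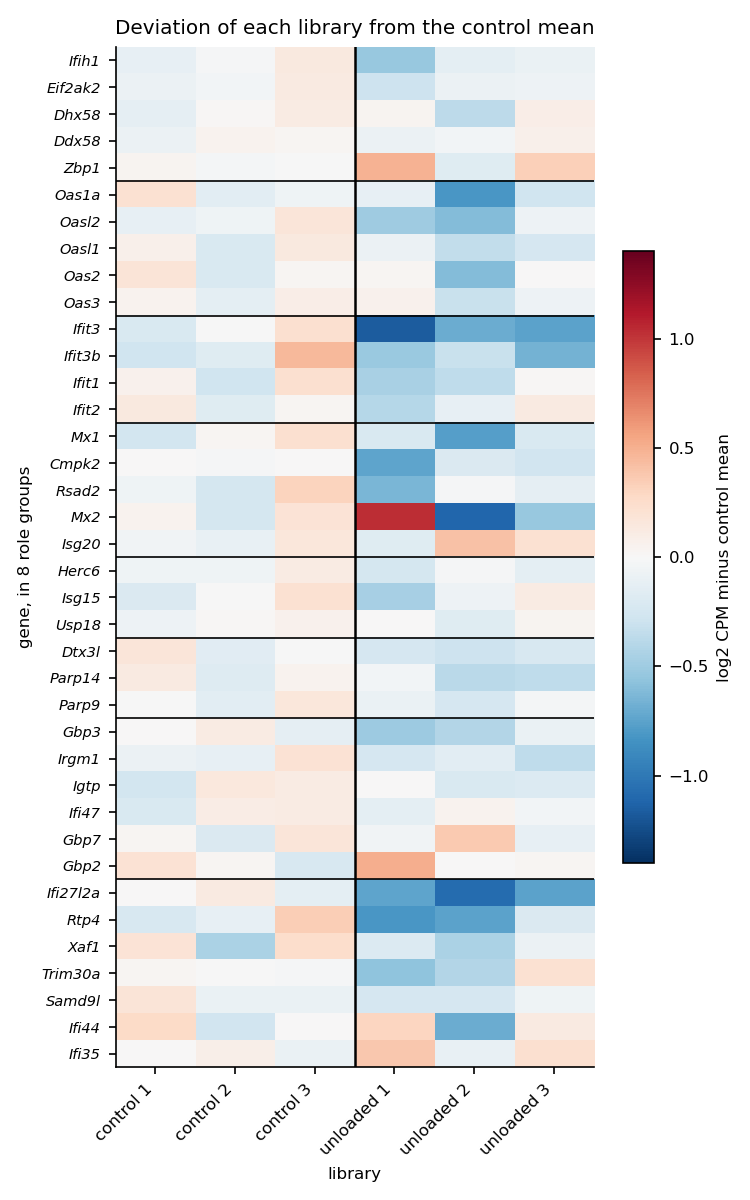
Log2 CPM of each gene in each library minus its control mean, with genes in rows by role and libraries in columns; blue is lower and red higher. Unloaded 2 is below the control mean for 34 genes, unloaded 1 for 28 and unloaded 3 for 25, and control 3 is the highest library for 19 genes.

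Libraries differed in how far they followed this pattern. The median deviation of the 38 genes from the control mean was 0.01, -0.08 and 0.11 in controls 1 to 3 and -0.20, -0.27 and -0.08 in unloaded 1 to 3 (log2 CPM). Unloaded 3 was therefore level with control 2. Control 3 held the highest value for 19 members, while the lowest value lay in unloaded 2 for 17 members, in unloaded 1 for 15 and in unloaded 3 for 2. Without unloaded 1, some values near 0 grew larger, with Oas2 at -0.28, Oas3 at -0.19, Igtp at -0.21, Dhx58 at -0.12, Gbp7 at 0.14 and Ifi44 at -0.27. Ifit1 was at -0.17, Ifi47 at 0.00 and Ddx58 at 0.02 in that fit. Over all genes tested the median deviation was 0.01 in unloaded 3 and 0.00 in the others. The summed level of the 38 genes was 1428 ± 68.3 CPM in controls against 1257 ± 79.8 CPM in unloaded libraries (SD, n = 3), with control 2 at 1351 CPM and unloaded 3 at 1349 CPM.

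Fold changes were set out by whether the promoter held an ISRE match, with no test. The 13 genes with a match had a median log2 fold change of -0.25 (from -0.88 to 0.19), with 11 negative. The 15 without one had a median of -0.15 (from -0.38 to 0.18), with 13 negative. Ifit3, Ifit3b and Oas1a, all with matches, lay below all 15 genes searched that had none. For Oas1a the margin was narrow, at -0.39 against -0.38 for Cmpk2 and Oasl2. Ifit3 and Ifit3b have the same window. The 10 genes without a promoter entry are in neither set, and ran from -0.86 for Ifi27l2a to 0.24 for Zbp1. Gbp2 and Gbp7, with 1 match each, were among the positive members.

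**Figure D4:**
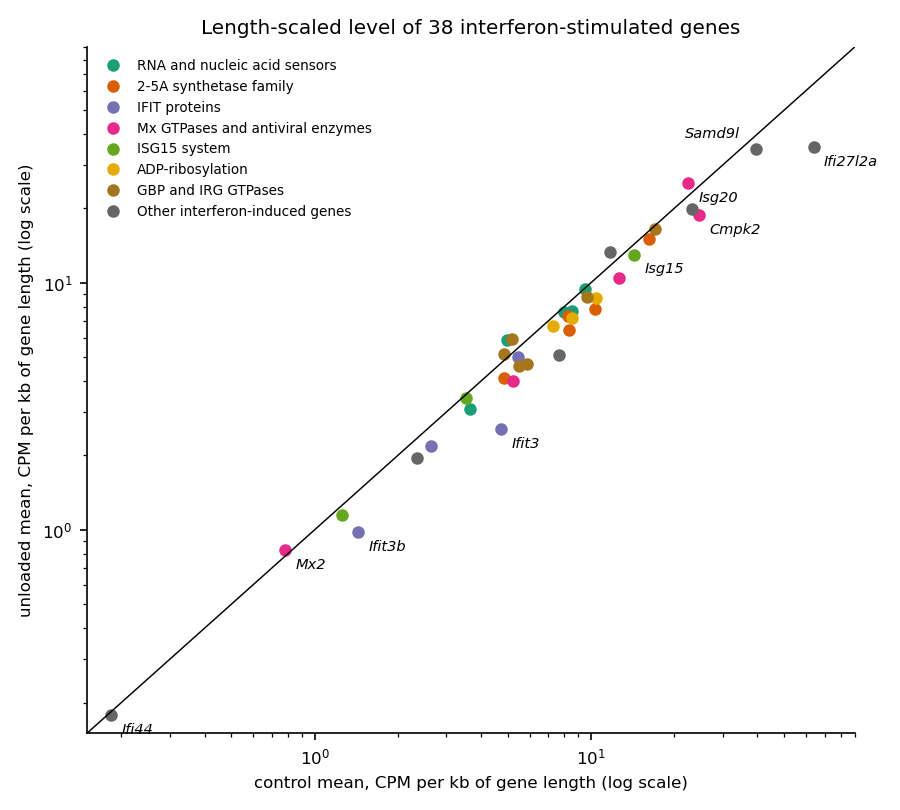
Mean level per kb of gene length in controls (x axis) and unloaded libraries (y axis) on log scales for the 38 genes, colored by role, with the line of equal level. Points span from Ifi44 at 0.181 to Ifi27l2a at 49.6 CPM per kb, and Ifi27l2a and Ifit3 lie clearly below the line.

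Per kb of gene length, mean levels over all 6 libraries ran from 0.181 CPM per kb for Ifi44 to 49.6 for Ifi27l2a. The median was 7.17 CPM per kb, against 5.46 over all genes tested. After Ifi27l2a came Samd9l at 37.2, Isg20 at 23.9, Cmpk2 at 21.7 and Trim30a at 21.6 CPM per kb. Neighbors in this order such as Isg20, Cmpk2 and Trim30a differed by less than their spread over libraries. Isg15 stood at 13.7 CPM per kb, Ifit3 at 3.64 and Mx2 at 0.806.

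Genes around the pathway were set beside the members. Of 21 interferon genes, 18 had no count in any library, among them Ifnb1 and all Ifna genes listed, and a count of 0 in the library with the fewest reads leaves room for a level of 0.189 CPM (3 counts, counting error only). Ifng, the interferon of T and NK cells, had 12, 18 and 9 counts in controls and 8, 13 and 7 counts in unloaded libraries, too few to resolve a difference (log2 fold change -0.42 ± 0.48). Ifnk and Ifnz had at most 2 counts in a library.

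The receptors and their signaling chain had small fold changes. Of 12 genes 8 were below 0, the median was -0.05 and 0 genes were at an unadjusted p under 0.05 in edgeR. Without unloaded 1, 11 of the 12 were below 0 and the median was -0.10. The type I receptor genes Ifnar1 and Ifnar2 had 0.07 ± 0.11 and -0.04 ± 0.10. Stat2 and Irf9, which encode subunits of ISGF3, had 0.06 ± 0.15 and -0.03 ± 0.12, or -0.07 and -0.16 without unloaded 1. Receptor subunit genes had the smallest p of the list, Ifnlr1 at -0.18 ± 0.10, Il10rb at -0.22 ± 0.12 and Ifngr2 at -0.17 ± 0.10.

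Upstream sensors, adaptors and kinases were below 0 in 7 of 15 genes, at a median of 0.00 and with 0 at an unadjusted p under 0.05. These values rested on unloaded 1: without it 13 of the 15 were below 0, the median was -0.12 and 2 were lower at that threshold, where 5.18% of all genes tested were. Irf7, the factor that amplifies type I interferon production, was at 51.9, 46.7 and 53.2 CPM in controls and at 58.1, 41.8 and 51 CPM after unloading. Its log2 fold change was -0.01 ± 0.13, and -0.13 with unloaded 1 left out. The endosomal receptor genes Tlr3 (-0.77 ± 0.43, near 1 CPM) and Tlr9 (-0.24 ± 0.14, or -0.40 without unloaded 1) and the kinase gene Tbk1 (-0.16 ± 0.10) had the smallest p. Negative regulators were below 0 in 7 of 11 genes tested, at a median of -0.03 and with 0 at that threshold. The median was 0.02 without unloaded 3. Socs3 had 0.41 ± 0.26, Ptpn1 0.21 ± 0.16 and Socs1 -0.40 ± 0.32, and without unloaded 1 they were at 0.04, -0.02 and -0.07. Trex1 is listed at 0 in every library, and whether its reads were lost in the counting was not tested.

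A list of 72 further interferon-induced genes, also chosen with earlier results of these data known, showed a smaller lean in the same direction. Of 70 tested, 46 had a negative fold change (65.7%, against 48.8% of all genes tested), and the median was -0.10. At an unadjusted edgeR p under 0.05 there were 9 lower (12.9%) and 1 higher, against 3.18% of all genes tested lower and 2.67% higher. The 1 higher was the membrane protein gene Ifitm2, at 0.42 ± 0.17. The count of 9 lower was 19 without unloaded 1, where 5.18% of all genes tested were lower at that threshold. It was 4 without control 1 or without control 3, where 1.65% and 2.41% of all genes tested were lower. None passed after adjustment, with a smallest edgeR adjusted p of 0.524. Without a low-count filter 1 did, Oas1g (adjusted p = 0.00116), but that fit understated the spread of some genes. The SE of Vcan, a classical monocyte marker, was 0.14 there and 0.51 with the filter. Oas1g, Irgm2 and Ifi27 had the smallest p.

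**Figure D5:**
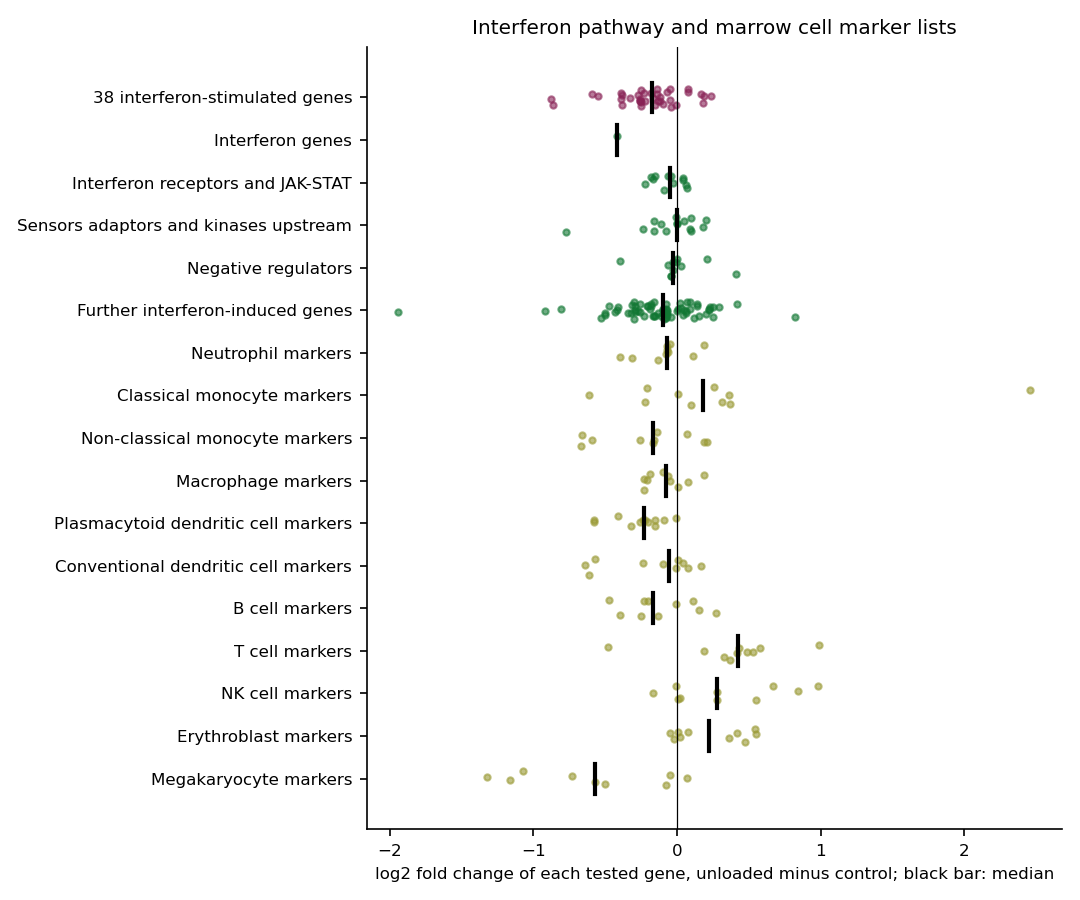
Log2 fold change of each tested gene (points) by list, with the list median as a black bar, for the 38 genes, 5 lists of the interferon pathway and 11 lists of marrow cell markers. The median is -0.18 for the 38 genes, -0.23 for plasmacytoid dendritic cell markers and 0.42 for T cell markers.

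Plasmacytoid dendritic cells are a main source of type I interferon, and monocytes carry many interferon-stimulated transcripts. In bulk marrow, fewer cells of a type and less RNA per cell cannot be told apart. All 12 plasmacytoid dendritic cell markers were below 0, at a median of -0.23, and their summed level was 773 to 823 CPM in controls and 632 to 698 CPM after unloading, without overlap. Siglech, a widely used marker of these cells, had -0.32 ± 0.12, and Spib, also a B cell gene, -0.58 ± 0.11. The largest parts of the summed level were Irf8 and Spib, with means of 282 and 154 CPM, and Irf8 had -0.15 ± 0.10. Some values were near 0, such as Ccr9 at -0.01 ± 0.26 and Runx2 at -0.09 ± 0.14. Without unloaded 1 the count below 0 was 9. Non-classical monocyte markers were below 0 in 7 of 10, with a summed level of 994 to 1073 CPM in controls and 846 to 988 CPM after unloading. Cx3cr1 had -0.67 ± 0.11 and Ace -0.66 ± 0.16, whereas Pou2f2, Fabp4 and Eno3 were above 0, at 0.21 ± 0.19, 0.19 ± 0.32 and 0.07 ± 0.17. The largest parts of the summed level were Itgal and Spn, with means of 416 and 323 CPM and log2 fold changes of -0.16 ± 0.12 and -0.14 ± 0.10. No marker of either list was at 0 in any library, and their part in the lower interferon-stimulated genes was not tested.

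The other marker lists did not follow a single direction, and several moved with 1 library. Negative fold changes were found in 8 of 10 neutrophil, 3 of 10 classical monocyte, 7 of 10 macrophage, 6 of 10 conventional dendritic cell and 7 of 10 B cell markers, with medians of -0.07, 0.18, -0.08, -0.06 and -0.17. Summed levels of these lists overlapped between the groups. Without unloaded 1, macrophage markers were below 0 in 10 of 10, at a median of -0.32 and with 5 lower at an unadjusted p under 0.05, where 5.18% of all genes tested were. In that fit the medians were -0.25 for conventional dendritic cell, -0.30 for B cell and 0.02 for classical monocyte markers. Without unloaded 3 they were 0.02 for conventional dendritic cell and -0.01 for B cell markers, and the neutrophil median ran from -0.17 to -0.01 with single libraries left out. The non-classical monocyte median was -0.09 without unloaded 1, with 9 of 10 below 0. T cell and NK cell markers were below 0 in 1 of 10 and 2 of 10, with medians of 0.42 and 0.28, and erythroblast markers in 2 of 10, with a median of 0.22 and summed levels of 4023 to 4882 CPM in controls and 4939 to 6657 CPM in unloaded libraries, without overlap. Without unloaded 2, erythroblast markers were below 0 in 6 of 10, at a median of -0.05, and the T cell median was 0.13. Megakaryocyte markers were below 0 in 8 of 9 tested, with a median of -0.57 and summed levels of 128 to 132 CPM in controls and 86.9 to 111 CPM in unloaded libraries, and Gp1bb alone was at 0 counts in some libraries. Their part in the result was not tested.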

How the data were processed

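The deposited table holds raw read counts per gene for 6 libraries, without normalization, with gene lengths and positions used as deposited. CASAVA, HISAT2 2.0.5, featureCounts 1.5.0-p3 and mm10 are named in the submitters' processing notes, with no role given. The annotation release, the strand setting and how multiply mapped reads were counted are not known from the labels, which bears on near-identical copies. Libraries were grouped by title.

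Genes were kept with filterByExpr at its defaults, scaled with TMM and compared with edgeR 4.0.16 (glmQLFit, glmQLFTest) in R 4.3.3, with Benjamini-Hochberg adjustment over all 15015 genes and a threshold of 0.05. CPM are TMM-normalized, log2 CPM used a prior count of 2, and the SE is the fold change divided by the root of its F. The scripts were tested on simulated data. Alternatives were DESeq2 1.42.0, limma-voom with limma 3.58.1, scaling by RLE or by the upper quartile, no filter, a filter of 1 CPM in 3 libraries, each library left out, and the replicate number as a block. All library pairs differed beyond sampling noise (chi-square per degree of freedom at least 6.64).

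Members and all lists (8 role groups, 5 pathway lists, 11 marker lists) were chosen with earlier results of these data known. In each role group the 3 members with the smallest p and the one with the highest mean CPM are given in every library, and in each pathway list up to 3 genes with the smallest p, besides preset receptor and ISGF3 genes, of which 1 is not reported here. Other genes named were chosen after their values were seen. Transcript windows of 50 bases came from GENCODE M21, and promoters from RefSeq (GRCm38.p6).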

Additional observations from a re-analysis of the deposited data

How the results depend on the processing

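Ifi27l2a was the 1 member called under any alternative: DESeq2 called 35 genes and 1 member as lower, and edgeR without a low-count filter called 183 genes and 1 member as lower. The fit without a filter gave some variable genes a small SE (Vcan 0.14, against 0.51 with the filter, and Hbb-bt 0.13 against 0.22). Its calls are therefore less certain than their adjusted p. No member was called as higher under any alternative run. Members with a negative fold change numbered 29 to 33 of 38 and their median ran from -0.23 to -0.12 over all alternatives. With single libraries left out, edgeR called 0 to 5 genes, the 5 without unloaded 1, and no member. Signs turned for values near 0. Ddx58 was at 0.00 with upper-quartile scaling, and with single libraries left out it ran from -0.06 to 0.02, Ifi47 from -0.15 to 0.00, Ifit2 from -0.26 to 0.01, Isg15 from -0.27 to 0.02 and Usp18 from -0.08 to 0.02. Dhx58, Gbp7, Ifi44, Mx2 and Oas2 also turned or reached 0 when 1 library was left out. The cause was not tested. With 3 libraries a group, differences as small as the members' median are near the spread between libraries.

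The replicate numbers showed no sign of pairing the libraries, with deviations of same-numbered libraries correlated at 0.0309, -0.0633 and 0.0185. Deviations were taken from means of only 3 libraries, so these values cannot exclude pairing. With the replicate number as a block edgeR called 1 gene, which was no member, and 33 members were negative with a median of -0.18.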
